A study of Mus musculus with 9 samples.

Results

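The 9 genes Cav1, Cav2, Cav3, Cavin1, Cavin2, Cavin3, Cavin4, Ehd2 and Pacsin3 encode the caveolins, the cavins and a pair of accessory proteins of caveolae, and they were examined in mouse satellite cells, which are muscle stem cells, after loss of Uhrf1. They were taken as a gene family by name after Cav1 had been seen to be lower in the Mutant. All 9 were present among the 22631 genes of the authors' deposited table of Mutant against Control, and all 9 among the 27775 genes of a second deposited table that compares arms named PT and PUT. Uhrf1 encodes a chromatin protein that recruits DNMT1, the enzyme that copies DNA methylation after replication.

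Caveolae are small flask-shaped pits of the plasma membrane. Caveolins are the integral membrane proteins that bend the membrane together with cholesterol, cavins are soluble proteins that assemble a coat over them, and EHD2 and PACSIN proteins act at the neck. Caveolae flatten when the membrane is stretched, and in muscle their components are known for protecting the sarcolemma: mutations of CAV3 and of CAVIN1 cause muscle disease in humans.

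Mutant mice (Uhrf1-deficient in satellite cells) were injected into the peritoneum with 150 µl of tamoxifen at 20 mg/ml on 5 days, and Control mice received oil. Per the labels, each group has 3 libraries from hindlimb muscle of mice aged 9 weeks, and RNA was taken after 3 days of culture from a seeding density of 5000 cells/cm2. The Cre Control group also had tamoxifen, again with 3 libraries, and was not analysed here. The Uhrf1 allele, the Cre line and its promoter, and the number of animals per library are not given in these sources. Because the Mutant and the Control also differ in tamoxifen against oil, the effects of tamoxifen and of Uhrf1 loss cannot be told apart. The labels do not tie a library to an animal, so the authors' p-values measure a spread between libraries that may be technical.

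The gene tables give means and test statistics, and values of single libraries were not analysed here, so neither overlap between groups nor depth behind a gene can be given. The targeted gene Uhrf1 had a mean of 20.4 TPM (transcript level scaled by gene length and library total) in the Mutant against 118 TPM in the Control in the authors' deposited table. One library stands apart in counts of repeat elements, the only measurement with a value per library: reads of the retrotransposon IAPEz-int made up 9.29%, 11.1% and 16.3% of repeat counts in the 3 Mutant libraries, against 0.501% and 0.675% in Control 1 and Control 2 and 13.1% in the library labelled Control 3. The 95% Wilson intervals, which cover counting error only, were 9.25% to 9.33%, 11.1% to 11.2% and 16.2% to 16.3% in the Mutant libraries, 0.491% to 0.511% in Control 1, 0.664% to 0.686% in Control 2 and 13.1% to 13.2% in the library labelled Control 3, at totals of 1794698 to 2245124 repeat counts a library. That library thus lay within the range of the Mutant. No source says whether it entered the Control means of the gene table, and gene values without it could not be computed.

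Every caveola gene was expressed in these cells. Cavin1, which encodes the cavin that all coat assembly needs, and Cav1, the main caveolin outside striated muscle, were the most abundant: Cavin1 had a mean of 205 TPM in the Mutant against 221 TPM in the Control, and Cav1 had 170 TPM in the Mutant against 282 TPM in the Control, in the authors' deposited table. Averaged over both groups they lay at percentiles 96.9 (Cavin1) and 97.1 (Cav1) of all genes of that list. In Mutant cells the order by deposited mean TPM was Cavin1, Cav1, Ehd2, Cavin4, Cavin2, Cavin3, Cav2, Pacsin3 and Cav3. In Control cells Cav1 came before Cavin1, and Cavin4 and Cavin2 before Ehd2, while Cav3 was again the lowest. Spread between libraries is not given for these means, so neighbours in either order cannot be said to differ.

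**Figure D1:**
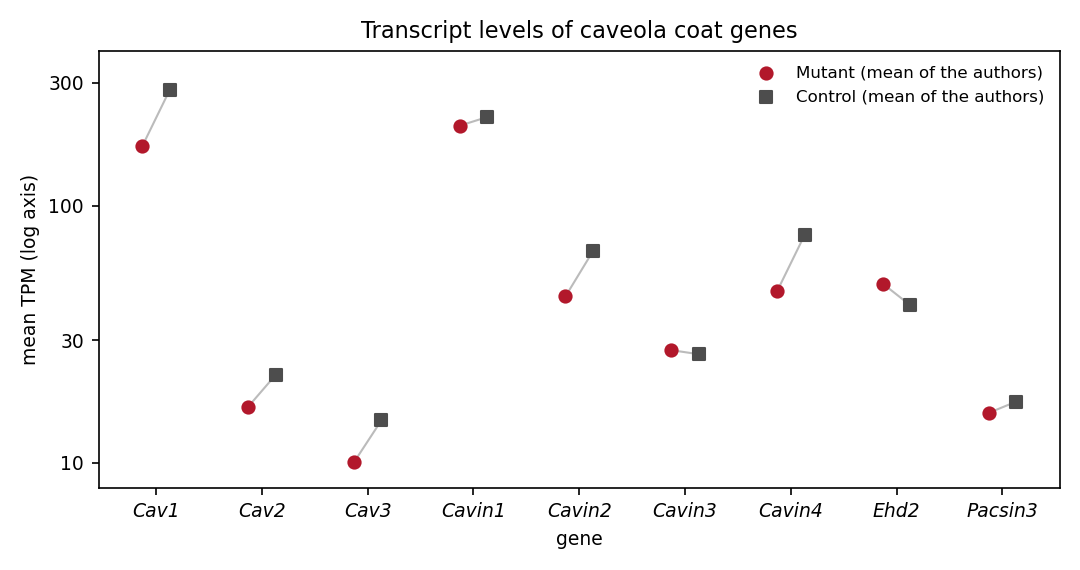
Mean TPM (log axis) of the 9 caveola genes in the Mutant (left marker of each pair) and the Control (right marker) from the authors' deposited table, each marker being 1 group mean with no error given. Cav1 lies at 170 TPM in the Mutant against 282 TPM in the Control, and Ehd2 and Cavin3 are the only genes whose Mutant marker is the higher.

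Among the caveolins, both genes of the adjoining pair Cav1 and Cav2 were lower in the Mutant. Cav1 (ENSMUSG00000007655) lies at chr6:17306335-17341452 and Cav2 (ENSMUSG00000000058), whose product forms hetero-oligomers with caveolin-1, lies at chr6:17281185-17289115 (both on the + strand of GRCm38), with 17.2 kb between them. Their promoter windows and that of Cavin2, the cavin gene with the lowest adjusted p in the Mutant comparison, are printed because the protein encoded by Uhrf1 binds methylated CG dinucleotides. Each window runs from 250 bases before to 50 bases after the RefSeq gene start (RefSeq, GRCm38.p6, + strand), 5′ to 3′, at chr6:17306085-17306384 for Cav1, chr6:17280935-17281234 for Cav2 and chr1:51288876-51289175 for Cavin2, with CG dinucleotides in capitals.
Cav1: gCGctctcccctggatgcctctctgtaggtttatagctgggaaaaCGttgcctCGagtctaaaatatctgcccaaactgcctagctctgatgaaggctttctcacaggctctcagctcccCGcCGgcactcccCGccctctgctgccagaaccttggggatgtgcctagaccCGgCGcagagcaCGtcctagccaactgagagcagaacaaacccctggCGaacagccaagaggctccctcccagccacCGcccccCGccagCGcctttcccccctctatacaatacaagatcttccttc
Cav2: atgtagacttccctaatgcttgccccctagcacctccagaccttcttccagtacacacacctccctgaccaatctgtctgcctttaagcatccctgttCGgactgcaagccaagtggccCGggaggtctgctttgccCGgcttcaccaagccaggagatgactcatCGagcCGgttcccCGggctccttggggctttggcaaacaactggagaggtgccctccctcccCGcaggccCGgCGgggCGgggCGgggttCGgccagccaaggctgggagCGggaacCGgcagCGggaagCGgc
Cavin2: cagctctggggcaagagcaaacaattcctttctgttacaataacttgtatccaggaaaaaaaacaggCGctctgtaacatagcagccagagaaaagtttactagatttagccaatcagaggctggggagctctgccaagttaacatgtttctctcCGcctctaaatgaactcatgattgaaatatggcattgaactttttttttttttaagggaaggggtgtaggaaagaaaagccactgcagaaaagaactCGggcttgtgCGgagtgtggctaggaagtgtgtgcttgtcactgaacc
The Cav1 window holds 13 CG dinucleotides, 0.535 of the number its base composition predicts. The Cav2 window holds 16, at a ratio of 0.518. The Cavin2 window holds only 4, at a ratio of 0.290, with a GC content of 43.3%.

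Across all 32851 promoter windows of the RefSeq table the medians were 7 CG dinucleotides, an observed to expected ratio of 0.384 and a GC content of 52.7%. The genes lower in the Mutant therefore lay on both sides of the median: Cav1 and Cav2 had CG-richer windows, and Cavin2 a CG-poorer one. Windows were found for 8 of the 9 genes. Of the others, Cavin1 held 17 or 18 CG dinucleotides in its alternative windows and Ehd2 18, Pacsin3 held 24 or 12, and a second Cav1 window 16, while Cav3 held 6 and Cavin4 7. The search also covered both strands for the E-box letters CANNTG, which are bound by myogenic factors, for TATAAA, for the GC-box letters GGGCGG and for the MEF2 motif. CANNTG was found once in the printed Cav1 window, 2 times each in those of Cav2 and Cav3, once each in those of Cavin4 and Ehd2 and 1 or 3 times in those of Pacsin3, and 72.3% of all windows hold it. It was not found in the windows of Cavin1 and Cavin2. GGGCGG was found 2 times each in the printed Cav1 window, the Cav2 and Ehd2 windows and both Pacsin3 windows and once in each Cavin1 window, and 35.7% of all windows hold it. TATAAA was found once in the printed Cav1 window and once in the Cavin4 window, with a share of 13.6% over all windows. The MEF2 motif was in none of the windows of these genes and in 3.19% of all windows. No methylation was measured in the data analysed here.

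For Cav1, the log2 ratio of mean TPM, Mutant over Control, was −0.72 in the authors' deposited table, while the estimate behind the authors' test, recovered as their statistic times its standard error (SE), was −0.56 with an SE of 0.075. The 95% interval of that estimate, taken as 1.96 SE to either side, ran from −0.70 to −0.41. The gap between the 2 scales, −0.17, was larger for Cav1 than for any other of the 9 genes, and no source used here says how the authors formed TPM. Since the family was chosen for this value, it is a description and carries no test. Bulk RNA cannot tell fewer cells of a type from less RNA per cell. Estimates given from here on for Mutant against Control are those of the authors' test, in log2 units, and a call means an adjusted p below 0.05 in their table.

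Cav2 was also lower: its mean was 16.5 TPM in the Mutant against 21.98 TPM in the Control, with an estimate, in the authors' deposited table, of −0.47 (SE 0.13, adjusted p = 0.00179). Cav3 (chr6:112459505-112472872), which encodes the caveolin of differentiated muscle fibres, had 10.05 TPM in the Mutant against 14.6 TPM in the Control, with an estimate, in the authors' deposited table, of −0.55 (SE 0.62, adjusted p = 0.758). The Cav3 estimate is about as large as that of Cav1, but its interval, −1.75 to 0.66, spans 0. Summed over the 3 caveolin genes, the authors' deposited table gives 197 TPM in the Mutant against 319 TPM in the Control, a ratio of 0.618. Cav1 made up 86.5% of that sum in the Mutant and 88.5% in the Control, so the caveolin total follows Cav1.

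Among the cavins, Cavin2 was lower, Cavin3 hardly differed, and Cavin1 and Cavin4 did not pass the threshold. Cavin2 (ENSMUSG00000045954, chr1:51289126-51302960), whose product shapes and enlarges caveolae, had 44.4 TPM in the Mutant against 66.5 TPM in the Control, with an estimate, in the authors' deposited table, of −0.60 (SE 0.088, adjusted p = 7.07e-10). Cavin1 (chr11:100956733-100970887) had an estimate, in the authors' deposited table, of −0.12 (SE 0.045, adjusted p = 0.0516), just outside the threshold. Its interval ran from −0.21 to −0.03, so a fall as large as that of Cav1 or Cavin2 lies outside it. Cavin3 (chr7:105480083-105482300), which binds protein kinase C delta, had 27.4 TPM in the Mutant against 26.5 TPM in the Control and an estimate, in the authors' deposited table, of 0.04 (SE 0.13, adjusted p = 0.926). The Cavin3 exons overlap Gm45667 on the other strand, and since the strand setting of the counting is not given, reads of the 2 genes may not be told apart.

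Cavin4 (chr4:48663514-48673502), the muscle-restricted cavin, had 46.4 TPM in the Mutant against 76.7 TPM in the Control, a ratio of 0.605, beside 0.604 for Cav1. In the authors' deposited table its estimate was −0.74 (SE 0.35, adjusted p = 0.154), and its interval ran from −1.42 to −0.05. The ratios of means were thus alike, while the test estimates were −0.74 (SE 0.35) for Cavin4 and −0.56 (SE 0.075) for Cav1. The 4 cavins summed to 323 TPM in the Mutant against 391 TPM in the Control in the authors' deposited table, a ratio of 0.826. Cavin1 made up 63.4% of the cavin sum in the Mutant and 56.6% in the Control, and Cavin2 13.7% in the Mutant and 17.0% in the Control. The ratio of Cav1 to Cavin1 in mean TPM was 0.833 in the Mutant and 1.28 in the Control. That ratio has no error, because the authors' table gives none for its means.

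Neither accessory gene was called. Ehd2 (chr7:15946958-15967567), which encodes the ATPase that holds caveolae at the surface, had 49.7 TPM in the Mutant against 41.0 TPM in the Control and an estimate, in the authors' deposited table, of 0.23 (SE 0.16, adjusted p = 0.426). Pacsin3 (chr2:91255954-91264679), which encodes the membrane-bending PACSIN of muscle, had 15.6 TPM in the Mutant against 17.3 TPM in the Control and an estimate, in the authors' deposited table, of −0.01 (SE 0.17, adjusted p = 0.994). Pacsin3 exons overlap the non-coding Gm17281 on the other strand, with the same limit as for Cavin3. The intervals, −0.08 to 0.54 for Ehd2 and −0.34 to 0.32 for Pacsin3, leave room for differences in either direction.

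Counted over the 9 genes, 3 were called lower in the Mutant (Cav1, Cav2 and Cavin2) and 0 higher. Over all genes, the authors' deposited table holds 8.11% called lower, 9.02% higher and 17.1% in either direction. These shares include genes of low level. Among the 13625 genes of at least 1 TPM, with p adjusted over those genes, 2019 were lower and 2142 higher. The median estimate of the 9 was −0.47, against 0.01 over all genes. At an unadjusted p below 0.05 in the authors' deposited table, 5 of the 9 were lower and 0 higher. Nothing is read from these counts, because the family was picked on this comparison. The genes next to the threshold on the inside and the outside were Cav2, at an adjusted p of 0.00179, and Cavin1, at 0.0516, in the authors' deposited table.

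**Figure D2:**
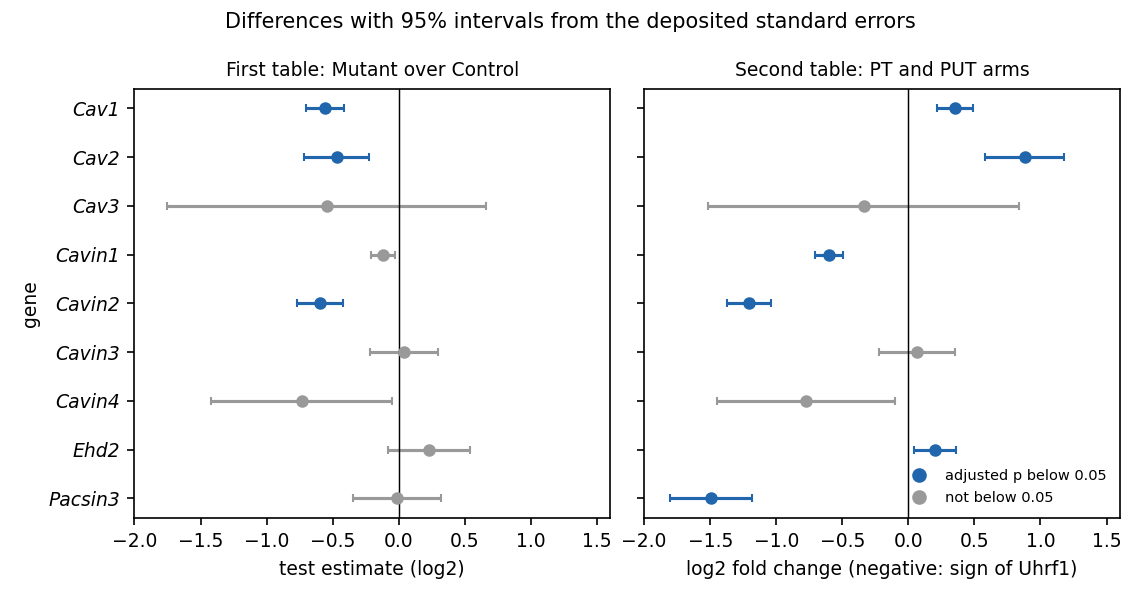
Log2 differences of the 9 caveola genes with 95% intervals (1.96 deposited SE to either side), in the Mutant over Control table on the left and in the table of PT and PUT arms on the right, where a negative value has the sign of Uhrf1. Cav1 is at −0.56 on the left and at 0.35 on the right, whereas Cavin2 is negative in both tables.

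The muscle-specific genes of the family had the least certain values. Cav3 had an SE of 0.62 against a median of 0.14 among genes within a 2-fold range of its level, at percentile 97.0, in the authors' deposited table of Mutant against Control. Cavin4 had an SE of 0.35 against a median of 0.080, at percentile 98.5, in the same authors' deposited table. Cavin1 lay at the other end, at percentile 2.81. The second of the authors' deposited tables gave the same picture, with Cav3 at percentile 98.7, Cavin4 at 99.5 and Cavin1 at 8.70 among genes of like count. Among 15 myogenic differentiation genes the median SE was 0.49 in the Mutant comparison and 14 of the 15 estimates were negative, with a median of −0.69, although only Actc1, the cardiac actin of early myotubes, was called lower and Des, the muscle intermediate filament gene, was called higher. Actc1 had 28.5 TPM in the Mutant against 141 TPM in the Control and an estimate of −2.30 (SE 0.84, adjusted p = 0.0385), and the myogenic factor Myog had 291 TPM in the Mutant against 589 TPM in the Control with an estimate of −1.03 (SE 0.54, adjusted p = 0.219), both in the authors' deposited table. The Cav3 and Cavin4 estimates, −0.55 and −0.74, lay on either side of that list's median in the Mutant comparison, as did their SEs. Between PT and PUT the list's median was 0.15, with 2 of the 15 called positive and 3 negative. There Cav3 was at −0.34 and Cavin4 at −0.78. The part of differentiation in their values was not tested.

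**Figure D3:**
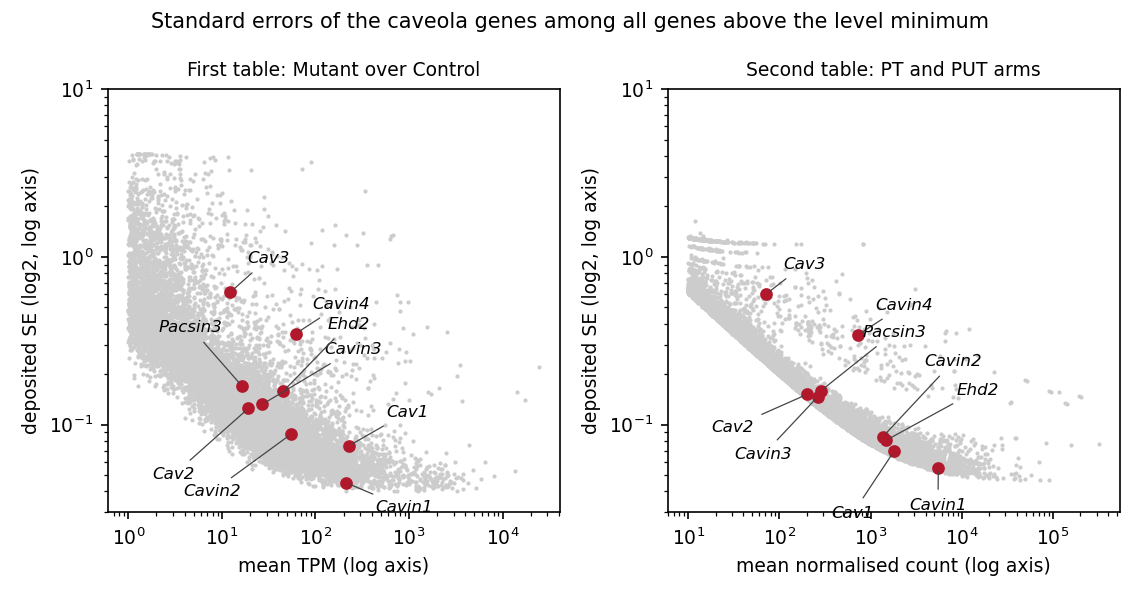
Deposited SE in log2 units (log axis) against level (log axis: mean TPM on the left for Mutant over Control, mean normalised count on the right for the PT and PUT arms), with each grey point 1 gene above the level minimum and the caveola genes in red. Cav3 and Cavin4 lie above the cloud at their level in both panels, and Cavin1 lies near its lower edge.

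In the second of the authors' deposited tables Cav1 and Cav2 had the opposite sign to Cavin1 and Cavin2. No label names the arms PT and PUT. The log2 fold change of Uhrf1 in that authors' deposited table was −4.00 (SE 0.27, adjusted p = 1.81e-48), so signs are given relative to Uhrf1, a negative value being the direction of Uhrf1. Whether its libraries are among those of the first table is not given, and differences between the tables were not tested. Over all its genes, 47.2% were called, 25.1% as positive and 22.1% as negative.

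Cav1 in the authors' deposited table of PT and PUT was positive, at 0.35 (SE 0.070, adjusted p = 2.18e-06), and so was Cav2, at 0.88 (SE 0.15, adjusted p = 3.58e-08). Cav3 in the authors' deposited table was at −0.34 (SE 0.60, adjusted p = 0.688), with an interval from −1.51 to 0.84. Both genes of the chromosome 6 pair therefore had the sign opposite to Uhrf1 here and the same sign as Uhrf1 in Mutant against Control.

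Cavin1 and Cavin2 were negative. In the authors' deposited table of PT and PUT, Cavin1 was at −0.60 (SE 0.055, adjusted p = 2.44e-26) and Cavin2 at −1.21 (SE 0.085, adjusted p = 2.39e-44). Cavin2 is the only gene of the family called in both tables with the sign of Uhrf1. Cavin4 in the authors' deposited table was at −0.78 (SE 0.34, adjusted p = 0.0507) and Cavin3 at 0.07 (SE 0.15, adjusted p = 0.746). The Cavin4 value is close to its −0.74 in the Mutant, and neither passed the threshold. Gm45667, the gene overlapping Cavin3, was at −1.08 in that authors' deposited table (SE 0.25, adjusted p = 5.29e-05), a sign and size that differ from those of Cavin3, although that difference was not tested.

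Pacsin3 had the most negative value of the family in the authors' deposited table of PT and PUT, −1.49 (SE 0.16, adjusted p = 7.09e-20), and Ehd2 was positive at 0.20 (SE 0.081, adjusted p = 0.0288). In all, 3 of the 9 genes were called positive and 3 negative, against 25.1% and 22.1% of all genes. The share called in either direction, 66.7%, stands beside 47.2% of all genes, and the 9 genes did not go one way. The share over all genes includes genes of low count. Among the 19118 genes of at least 10 mean normalised counts, with p adjusted over those genes, 5805 were positive and 6179 negative. Their mean normalised counts there ran from 71.9 for Cav3 to 5524 for Cavin1. Those counts are not scaled by gene length.

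The protein-coding neighbours of Cav1 and Cav2 did not all go the same way. Within 250 kb of either gene lie Tes, which encodes a focal adhesion protein, and Met, which encodes the hepatocyte growth factor receptor that is active in satellite cells. Met had 124 TPM in the Mutant against 148 TPM in the Control and an estimate, in the authors' deposited table, of −0.31 (SE 0.049, adjusted p = 1.98e-08). Tes was higher, with 45.3 TPM in the Mutant against 33.2 TPM in the Control and an estimate, in the authors' deposited table, of 0.43 (SE 0.10, adjusted p = 0.000326). In the table of PT and PUT, also the authors' deposited table, Met was at 0.51 (SE 0.060, adjusted p = 8.75e-17) and Tes at 0.10 (SE 0.10, adjusted p = 0.433). Met thus had the signs of Cav1 and Cav2 in both tables, with Cav2 and Cav1 lying between Tes and Met on the chromosome. Over the protein-coding neighbours of all 9 genes within 250 kb, 9 of 72 were called higher in the Mutant and 7 lower. Over all genes the shares were 9.02% and 8.11%. Between PT and PUT, 11 of 62 neighbours were positive and 23 negative, beside 25.1% and 22.1% of all genes. Beside Tes, those called higher in the Mutant were Oxtr near Cav3, Stat3, Stat5a and Ezh1 near Cavin1, Nabp1 near Cavin2, Smpd1 near Cavin3, and Slc39a13 and Spi1 near Pacsin3. Beside Met, those called lower were Rad18 near Cav3, Kat2a and Tubg1 near Cavin1, Rrp8 near Cavin3, Dhx34 near Ehd2 and Celf1 near Pacsin3. Cavin2 had only 2 such neighbours, and neither was called lower.

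**Figure D4:**
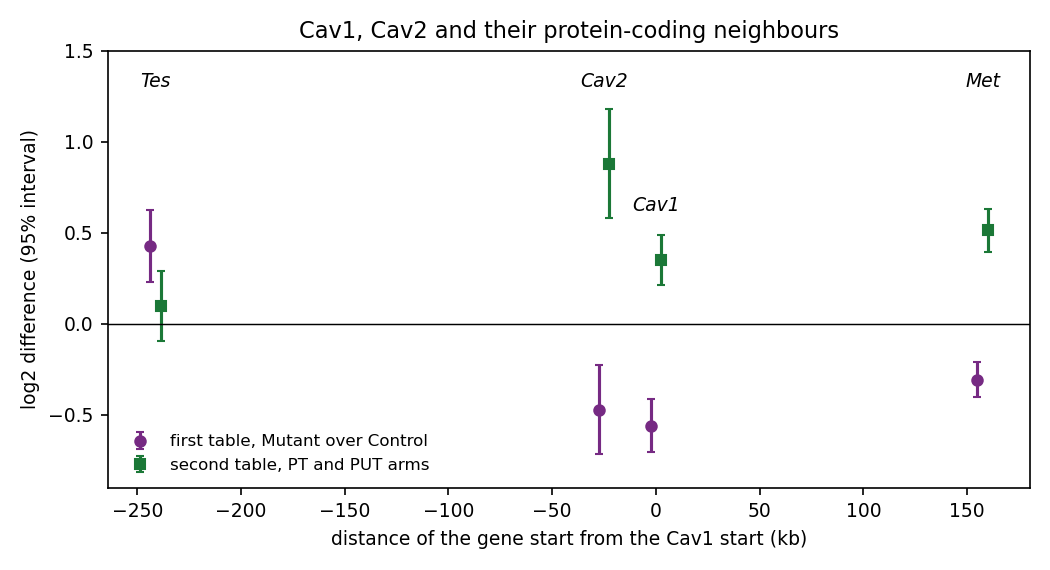
Log2 difference with its 95% interval for Tes, Cav2, Cav1 and Met against the distance of each gene start from the Cav1 start in kb, for Mutant over Control and for the PT and PUT arms, with the markers of a gene set slightly apart to be legible. Cav1, Cav2 and Met are below 0 in the Mutant and above 0 in the PT and PUT arms, while Tes is above 0 in the Mutant, at 0.43.

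In the lists of EHD, PACSIN and flotillin relatives and of clathrin endocytosis, every call in the Mutant was to the higher side. Over all genes, to be set beside these and the lists below, 9.02% were called higher in the Mutant and 8.11% lower. Between PT and PUT, 25.1% of all genes were positive and 22.1% negative. Of the 7 relatives, 2 were called higher in the Mutant and 0 lower, with a median estimate of 0.10. At an unadjusted p below 0.05 in the authors' deposited table, 3 were higher and 2 lower. Their sums were 434 TPM in the Mutant against 465 TPM in the Control. Flot1, which encodes a scaffold protein of flat lipid microdomains, had 23.5 TPM in the Mutant against 13.5 TPM in the Control and an estimate, in the authors' deposited table, of 0.90 (SE 0.16, adjusted p = 8.17e-07). Ehd3, an endosomal relative of Ehd2, had 11.8 TPM in the Mutant against 8.54 TPM in the Control and an estimate, in the authors' deposited table, of 0.46 (SE 0.15, adjusted p = 0.0157). Between PT and PUT, 1 of the 7 was called positive and 4 negative. Of 16 genes of clathrin endocytosis, the other main coat of the plasma membrane, 6 were called higher in the Mutant and 0 lower, with a median estimate of 0.17. Cltb, which encodes a clathrin light chain, had 30.6 TPM in the Mutant against 21.6 TPM in the Control and an estimate, in the authors' deposited table, of 0.51 (SE 0.13, adjusted p = 0.000633). Dnm2, the dynamin that cuts vesicles from the membrane, had 65.8 TPM in the Mutant against 54.7 TPM in the Control and an estimate, in the authors' deposited table, of 0.23 (SE 0.066, adjusted p = 0.00466). Between PT and PUT, 3 of the 16 were positive and 5 negative.

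Of 21 genes that supply cholesterol, the lipid that caveolae need, 1 was called higher in the Mutant and 3 lower, with a median estimate of −0.11. Hmgcs1, which encodes an early enzyme of cholesterol synthesis, had 45.6 TPM in the Mutant against 51.99 TPM in the Control and an estimate, in the authors' deposited table, of −0.26 (SE 0.077, adjusted p = 0.00617). In the table of PT and PUT, 10 of the 21 were positive and 6 negative.

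Of 10 targets of YAP and TAZ, the mechanically regulated co-activators that caveolae have been linked to, 4 were called higher in the Mutant and 1 lower. Ptpn14 had 55.1 TPM in the Mutant against 34.6 TPM in the Control and an estimate, in the authors' deposited table, of 0.70 (SE 0.061, adjusted p = 1.19e-27). Amotl2, which encodes a junction protein that restrains YAP, had 109 TPM in the Mutant against 150 TPM in the Control and an estimate, in the authors' deposited table, of −0.47 (SE 0.054, adjusted p = 2.72e-16). The others called higher, with estimates in the authors' deposited table, were Nt5e at 1.504 (SE 0.20, adjusted p = 3.49e-12), Crim1 at 0.66 (SE 0.11, adjusted p = 6.63e-08) and the matrix protein gene Ccn2 at 0.32 (SE 0.069, adjusted p = 5.99e-05). The called targets thus went in both directions, 4 of 5 of them higher.

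Among 15 receptors and kinases described at caveolae, 3 were called higher in the Mutant and 0 lower, with a median of 0.04. The epidermal growth factor receptor gene Egfr had 23.9 TPM in the Mutant against 15.8 TPM in the Control and an estimate, in the authors' deposited table, of 0.61 (SE 0.11, adjusted p = 1.82e-06). The receptor gene Tgfbr2, for transforming growth factor beta, had 25.2 TPM in the Mutant against 16.7 TPM in the Control and an estimate, in the authors' deposited table, of 0.57 (SE 0.086, adjusted p = 1.13e-09). Nos1, the nitric oxide synthase of muscle, had 2.01 TPM in the Mutant against 0.496 TPM in the Control and an estimate, in the authors' deposited table, of 2.42 (SE 0.53, adjusted p = 8.82e-05). By the PT and PUT table, 9 of the 15 were positive, these 3 among them, and 1 was negative.

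Of 12 membrane repair and T-tubule genes, 3 were called higher in the Mutant and 3 lower. The 3 called higher were Anxa2, Anxa5 and Anxa6, annexin genes whose calcium-binding products patch torn membranes. The 3 called lower were Anxa1, another annexin gene, Jph1 and Jph2. Anxa2 had 1203 TPM in the Mutant against 897 TPM in the Control and an estimate, in the authors' deposited table, of 0.41 (SE 0.066, adjusted p = 2.43e-08). Anxa5 had 202 TPM in the Mutant against 158 TPM in the Control and an estimate, in the authors' deposited table, of 0.38 (SE 0.057, adjusted p = 9.55e-10). Anxa1 had 490 TPM in the Mutant against 579 TPM in the Control and an estimate, in the authors' deposited table, of −0.25 (SE 0.065, adjusted p = 0.00114). Jph1, which encodes a protein joining T-tubules to the calcium store, had 7.29 TPM in the Mutant against 10.2 TPM in the Control and an estimate, in the authors' deposited table, of −0.49 (SE 0.13, adjusted p = 0.00119). In the table of PT and PUT, 0 of the 12 were positive and 4 negative.

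**Figure D5:**
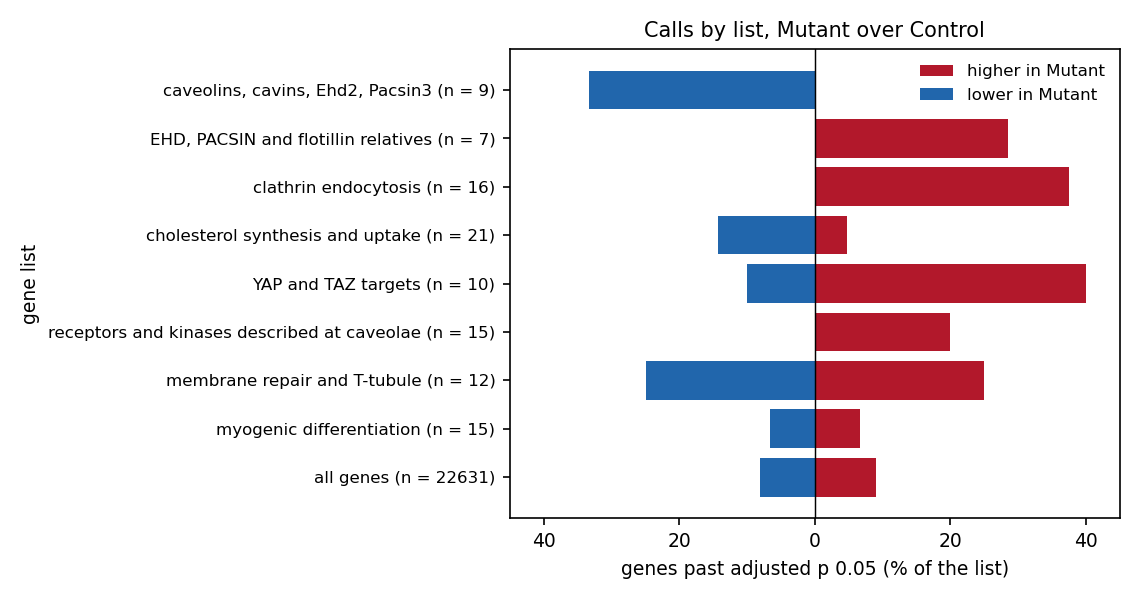
Share of each gene list (as % of its genes in the table) called lower (to the left of 0) and higher (to the right of 0) in the Mutant against the Control at an adjusted p below 0.05 in the authors' deposited table. The 9 caveola genes have calls only to the left, but nothing is read from this because they were picked on this comparison. The 16 clathrin genes have calls only to the right.

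Markers of muscle progenitors differed widely in level, in both groups. Myod1, the myogenic master regulator, had 914 TPM in the Mutant against 1018 TPM in the Control, and Pax7, the satellite cell transcription factor, had 29.6 TPM in the Mutant against 23.1 TPM in the Control, in the authors' deposited table. Cd34 had 3.23 TPM in the Mutant against 2.39 TPM in the Control, and Calcr 0.135 TPM against 0.175 TPM. Over the 10 satellite cell markers, 2 were called higher in the Mutant (Pax7 and Des) and 4 lower (Myod1, Itga7, Vcam1 and Cdh15). Their sums were 2587 TPM in the Mutant against 2642 TPM in the Control. Myod1 and Des, the latter at 892 TPM against 763 TPM, made up most of these sums, which therefore say little of the other markers.

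Endothelial cells, adipocytes, fibroblasts and smooth muscle are rich in caveolae, so their markers are given beside Cav1, Cav2 and Cavin2. The 10 endothelial markers, none of them at 0 in either group, summed to 16.9 TPM in the Mutant against 22.5 TPM in the Control in the authors' deposited table, with 2 called lower and 1 higher. Cdh5, the cadherin of endothelial junctions, had 0.896 TPM in the Mutant against 2.21 TPM in the Control and an estimate of −1.34 (SE 0.41, adjusted p = 0.00978), and Pecam1 had 2.25 TPM in the Mutant against 3.91 TPM in the Control and an estimate of −0.87 (SE 0.31, adjusted p = 0.0345), both in the authors' deposited table. Tek, which encodes the angiopoietin receptor, went the other way, with 2.63 TPM in the Mutant against 0.912 TPM in the Control and an estimate, in the authors' deposited table, of 1.31 (SE 0.40, adjusted p = 0.00925). The called endothelial markers thus went in both directions, at levels far under that of Cav1. Over all 10, 8 estimates were negative and 2 positive, with a median of −0.95. At an unadjusted p below 0.05 in the authors' deposited table, 3 were lower and 1 higher. Between PT and PUT, 3 of the 9 measured were called positive and 0 negative. The part of these markers in the result was not tested.

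The 10 fibroblast markers summed to 257 TPM in the Mutant against 246 TPM in the Control, with 0 called, in the authors' deposited table, and Dcn, a defining one, had 1.07 TPM in the Mutant against 1.05 TPM in the Control. The 5 adipocyte markers measured summed to 39.4 TPM in the Mutant against 38.8 TPM in the Control, with 0 called, in the authors' deposited table. The 9 smooth muscle and pericyte markers summed to 532 TPM in the Mutant against 507 TPM in the Control, with 2 higher and 0 lower, in the authors' deposited table. At an unadjusted p below 0.05, 2 fibroblast markers were higher and 0 lower, and 0 adipocyte markers were higher and 0 lower, in the authors' deposited table. Of the smooth muscle and pericyte markers, 2, Rgs5 and Notch3, were higher and 1, Myh11, was lower by the same measure. Rgs5 had 2.93 TPM in the Mutant against 0.359 TPM in the Control and an estimate of 3.03 (SE 0.37, adjusted p = 6.39e-14). Notch3 had 31.4 TPM in the Mutant against 18.3 TPM in the Control and an estimate of 0.77 (SE 0.060, adjusted p = 8.62e-34). Between PT and PUT, 4 of the 9 smooth muscle and pericyte markers were called positive and 1 negative. None of these 3 lists was lower in sum in the Mutant, but Col3a1, Acta2 and Lpl made up most of the respective sums. Col3a1 had 181 TPM in the Mutant against 179 TPM in the Control, and Acta2 had 421 TPM against 422 TPM. Lpl had 22.4 TPM in the Mutant against 21.2 TPM in the Control. The sums therefore say little of the other markers, and the part of these cell types was not tested. Among 7 macrophage and leukocyte markers measured, 2 were called higher and the sums were 112 TPM in the Mutant against 32.6 TPM in the Control, in the authors' deposited table. Most of that sum was Laptm5, a lysosomal protein gene of leukocytes, with 84.8 TPM in the Mutant against 25.1 TPM in the Control in the authors' deposited table. Cd68, also called higher, had 6.27 TPM in the Mutant against 3.46 TPM in the Control (adjusted p = 0.0244 in the authors' test). Fcer1g, not called, had 19.3 TPM in the Mutant against 3.22 TPM in the Control. Ptprc, which encodes the leukocyte surface protein CD45, was near 0, at 0.303 TPM in the Mutant against 0.381 TPM in the Control. Over the 7, 6 estimates were positive and 1, that of Ptprc, was negative, with a median of 1.28. Between PT and PUT, 3 of the 5 measured were called positive and 1 negative. The part of these cells in the result was not tested.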

How the data were processed

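Satellite cell RNA was measured by RNA-seq in 3 Mutant, 3 Control and 3 Cre Control libraries. Per the submitters' processing notes, the Mutant and Control libraries list DESeq2, featureCounts 2.0.1, STAR 2.7.6a and Trim Galore 0.6.6, with the builds GRCm38 and mm10. Strand settings and the treatment of reads that map to several places are not given in the sources used here, which bears on overlapping genes. The authors deposited group means in TPM, log2 ratios of TPM plus 1, standard errors, a test statistic (a score) and p-values for Mutant over Control. The second deposited table holds mean normalised counts (a signal not scaled by length), log2 fold changes with standard errors, and p-values. The authors also deposited whole-number counts of repeats per library, used here only as shares of each library's total.

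From these, the test estimate was computed as the statistic times its standard error and the 95% interval as 1.96 standard errors to either side. Calls use the authors' adjusted p below 0.05, over all genes of a table. Level minimums of 1 TPM and 10 mean normalised counts applied to the comparison of standard errors and to alternatives. Gene positions are those of GENCODE M21 (GRCm38), and promoter windows of RefSeq were searched by letters. The scripts were tested on simulated data. The 9 genes and the other lists were chosen with earlier results of these data known. Candidates to be named within a list were its called genes with the largest estimates, at most 4 a list and none under a mean of 1 TPM. Not all candidates are given with values. The choice among them, and other genes named, were made after their values were seen. No fit to libraries was made, because gene values per library were not analysed here. Protein sequences were not used here. Values of some cholesterol genes are not reported here.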

Additional observations from a re-analysis of the deposited data

How the results depend on the processing

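Of the 40 counts recomputed, over the 9 genes or all genes, each stayed within 1.5 times its main value. The 3 genes lower in the Mutant became 4 at an adjusted p below 0.1, over genes of at least 1 TPM (Cavin1, adjusted p = 0.0320) and after centring on the median of all genes (Cavin1, adjusted p = 0.0242). In the table of PT and PUT, 2 genes in place of 3 were positive, without Ehd2, at an adjusted p below 0.01 and after centring (Ehd2 at 0.06, adjusted p = 0.589). There, 4 in place of 3 were negative, with Cavin4 added, at an adjusted p below 0.1, over genes of at least 10 mean normalised counts (Cavin4, adjusted p = 0.0392) and after centring (Cavin4, adjusted p = 0.0181). Centring reversed Cavin3 to −0.07 (adjusted p = 0.727, against 0.746 uncentred). The median over all genes was 0.14 in that table and 0.01 in the Mutant comparison. Centring was chosen after seeing the data. All of these use the authors' deposited tables.

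No paired analysis was possible because the gene tables hold no value per library, and leaving out a replicate could not be run for the same reason. Scaling repeat counts by edgeR's trimmed mean of M-values left the library labelled Control 3 apart, with IAPEz-int at 14.1%. Depth limits on single genes are unknown, so for Cav3 and Cavin4 the interval is the only measure of what the data could show.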
